A study of Homo sapiens with 21 samples.

Results

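CXCL9, CXCL10 and CXCL11 encode the chemokines that attract activated T cells, and their RNA was followed in HT1376 tumours treated with inhibitors of polycomb repression. The 3 genes were taken by matching their symbols to the Ensembl identifiers of the count tables. They are 3 of the 57500 genes counted, and all 3 passed the filter on low counts together with the other genes among the 21958 tested. HT1376 is a human bladder carcinoma cell line, grown here under the skin of female CB17 SCID mice, a strain that lacks mature T and B lymphocytes. The 21 libraries fell into 7 groups of 3. The treated groups received CPI-0209, Valemetostat, MAK683 or tazemetostat, or one of PF-06821497 and CPI-1205, and the last group received vehicle. Each compound was dosed at 75 mg/kg once daily by mouth, and every tumour was collected on day 15, 1 hour after that day's dose. Mice were 6 to 8 weeks old when the study began, and the SCID background, the Matrigel implant and the cell line were common to all 7 groups. The labels name a cell line and a treatment for each library but do not say that each library is a separate mouse, so the p-values below speak only to the spread between libraries, which may be technical. An arm held 3 to 21 animals.

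CXCL9, CXCL10 and CXCL11 are small secreted proteins that share the receptor CXCR3, carried by activated T cells and natural killer cells. Interferon-gamma induces all of them, in part through IRF1, and type I interferons and NF-kB add to the induction of CXCL10 and CXCL11. Carcinoma cells can make them, and in tumours they are known as markers of T-cell entry. EZH2 and its relative EZH1 are the catalytic subunits of PRC2, which silences genes by methylating histone H3, and EED is the subunit that binds that mark. The series calls all of its compounds EZH2 inhibitors. Valemetostat is known to inhibit both EZH2 and EZH1, and MAK683 binds EED.

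The promoters of the 3 genes are printed because the genes moved together and because they hold binding motifs of the pathways that induce them. The genes lie side by side on the minus strand of chromosome 4 in hg38, CXCL9 (ENSG00000138755) at chr4:76001275-76007488, CXCL10 (ENSG00000169245) at chr4:76021117-76023497 and CXCL11 (ENSG00000169248) at chr4:76033682-76041415, within a span of 40.1 kb. Each RefSeq promoter below (GRCh38.p14, minus strand, 250 bases before to 50 after the gene's start) runs 5′ to 3′, and capitals mark matches to the motifs described after it.
CXCL9 (chr4:76007460-76007759): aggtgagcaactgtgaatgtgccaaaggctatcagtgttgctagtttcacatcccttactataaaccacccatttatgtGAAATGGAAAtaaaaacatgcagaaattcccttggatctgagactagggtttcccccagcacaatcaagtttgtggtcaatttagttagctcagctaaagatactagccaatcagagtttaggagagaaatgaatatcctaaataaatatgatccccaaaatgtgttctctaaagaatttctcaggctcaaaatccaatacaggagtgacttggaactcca
CXCL10 (chr4:76023448-76023747): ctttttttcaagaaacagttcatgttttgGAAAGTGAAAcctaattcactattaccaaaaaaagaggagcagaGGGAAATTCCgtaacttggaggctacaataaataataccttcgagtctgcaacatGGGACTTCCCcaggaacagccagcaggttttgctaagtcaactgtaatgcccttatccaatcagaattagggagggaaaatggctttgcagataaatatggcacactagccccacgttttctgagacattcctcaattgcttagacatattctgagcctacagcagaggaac
CXCL11 (chr4:76036021-76036320): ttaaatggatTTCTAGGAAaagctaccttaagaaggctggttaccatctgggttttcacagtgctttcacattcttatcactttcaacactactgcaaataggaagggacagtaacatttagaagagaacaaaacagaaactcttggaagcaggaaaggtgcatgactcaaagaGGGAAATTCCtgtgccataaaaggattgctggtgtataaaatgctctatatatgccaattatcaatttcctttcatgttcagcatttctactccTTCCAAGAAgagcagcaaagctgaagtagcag
Positions are counted from the first base of the RefSeq gene as 1. The RefSeq start of CXCL11 lies inside the gene as the count tables place it, which begins further upstream. The core of the interferon-stimulated response element, bound by IRF and STAT proteins, was searched as GAAANNGAAA on both strands. It matched GAAATGGAAA from -171 to -162 in CXCL9 and GAAAGTGAAA from -221 to -212 in CXCL10, and these letters were not in the CXCL11 window. Of 35116 RefSeq promoters of the same length, 3.57% hold this core. The STAT site TTCNNNGAA matched at TTCTAGGAA (-240 to -232) and TTCCAAGAA (19 to 27) in CXCL11 and in no other of the 3 windows, against 7.66% of all promoters. The NF-kB site matched GGGAAATTCC (-177 to -168) and GGGACTTCCC (-122 to -113) in CXCL10 and GGGAAATTCC (-76 to -67) in CXCL11, against 11.3% of all promoters. No motif match overlapped another. A match is a string of letters and was not measured as a bound site. The 3 windows are poor in CpG dinucleotides, with 0 in CXCL9, 3 in CXCL10 and 0 in CXCL11, where the median promoter has 14.

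Library totals ran from 9725690 to 25771778 counts. A gene with no read in the library with the fewest counts may have a true level as high as 0.287 CPM (counts scaled to a common library total by TMM), from a floor of 3 counts, which covers counting error only. EZH2 RNA averaged 87.7 ± 10.1 CPM with CPI-0209 and 72.6 ± 1.12 CPM in vehicle (SD, n = 3 each; log2 0.27 ± 0.10, edgeR adjusted p 0.0362), and EED averaged 54.9 ± 10.6 CPM with CPI-0209 and 37.0 ± 1.47 CPM in vehicle (0.56 ± 0.13, adjusted p 0.00153). EZH1 averaged 36.3 CPM with CPI-0209 and 47.2 CPM in vehicle (log2 -0.38 ± 0.11, edgeR adjusted p 0.00862). The compounds act on the proteins, so these RNA levels do not check the labels. CPI-0209 library 3 had the highest skeletal muscle markers of all libraries (median log2 CPM 7.23) and the lowest total, and Valemetostat library 3 had the highest CXCL9, CXCL10 and CXCL11 of its group.

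CXCL10 rose with CPI-0209, Valemetostat, MAK683 and PF-06821497. Its level was 97.2, 118.2 and 95.9 CPM with CPI-0209, 43.3, 35.4 and 120.2 CPM with Valemetostat, and 27.3, 16.8 and 16.6 CPM with MAK683. With tazemetostat it was 3.20, 2.25 and 2.33 CPM, with PF-06821497 15.9, 8.85 and 9.83 CPM, with CPI-1205 1.59, 2.85 and 2.46 CPM, and in vehicle 0.770, 0.923 and 0.745 CPM. Every library of every compound was above every vehicle library, and the Valemetostat libraries were the most spread. Against vehicle the log2 fold change was 6.98 ± 0.48 with CPI-0209 (SE, edgeR adjusted p 5.73e-09), a 126-fold difference, and 6.33 ± 0.48 with Valemetostat (adjusted p 3.96e-08). MAK683 gave 4.62 ± 0.47 (adjusted p 2.38e-06) and PF-06821497 gave 3.81 ± 0.48 (adjusted p 6.62e-05). Without Valemetostat library 3 the Valemetostat value was 5.61 (adjusted p 2.38e-10). Tazemetostat gave 1.66 ± 0.52 (95% interval 0.56 to 2.77, adjusted p 1, unadjusted p 0.00522 by edgeR) and CPI-1205 gave 1.49 ± 0.53 (interval 0.37 to 2.62, adjusted p 0.315, unadjusted p 0.0119 by edgeR), neither past the threshold of 0.05. These p-values come from 1 edgeR quasi-likelihood fit of all libraries, adjusted over all 21958 genes. For tazemetostat the call depended on the setting: the adjusted p was 1.03e-08 with no filter on low counts and 0.0234 in a fit of tazemetostat and vehicle alone. For CPI-1205 it was 7.62e-07 with no filter.

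**Figure D1:**
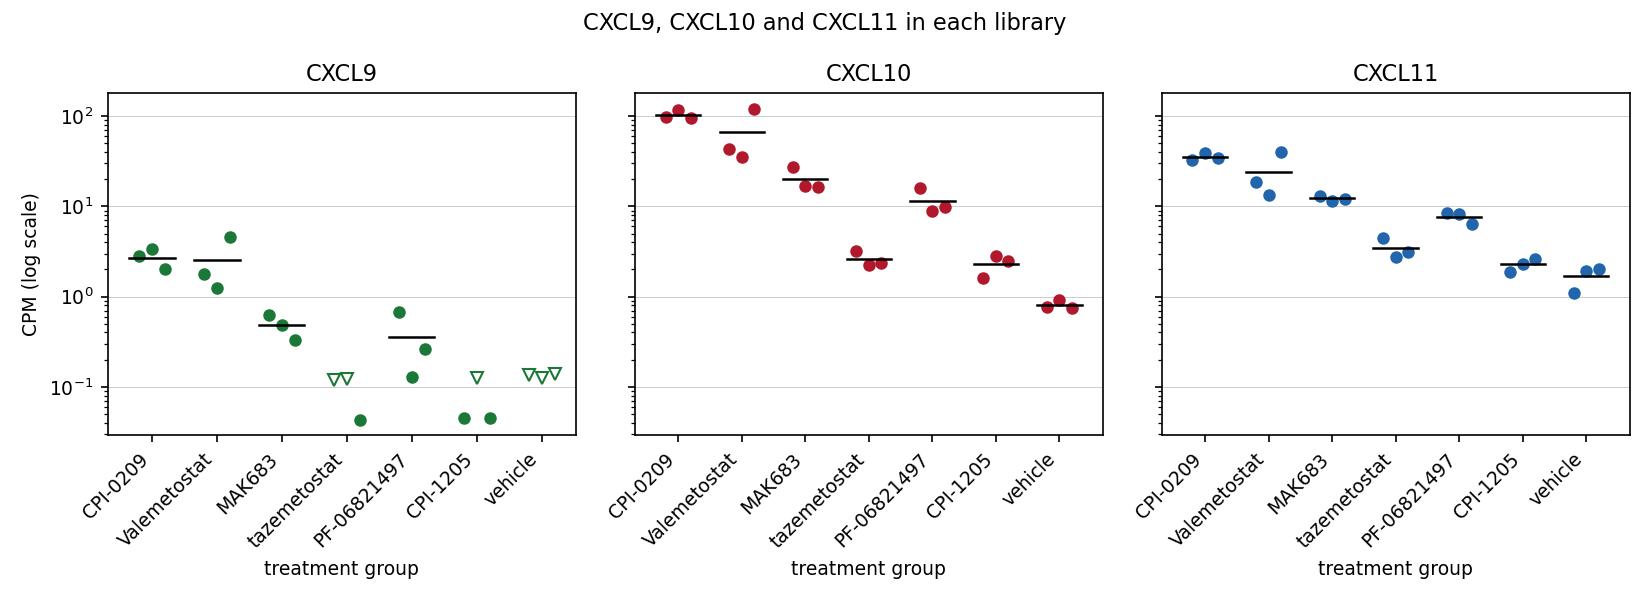
Level of each chemokine in each library (CPM, log axis) by treatment group, with a point per library and a line at the group mean where no library is at 0; open triangles mark libraries with 0 counts, drawn at the floor of 3 counts. CXCL10 and CXCL11 are highest with CPI-0209 (means 103.7 and 35.5 CPM) and lowest in vehicle (0.813 and 1.67 CPM), and CXCL9 has 0 counts in every vehicle library.

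CXCL11 was present in vehicle tumours and rose with the same 4 compounds as CXCL10. Its level was 32.8, 39.3 and 34.4 CPM with CPI-0209, 18.6, 13.2 and 39.6 CPM with Valemetostat, and 13.0, 11.5 and 12.2 CPM with MAK683. With tazemetostat it was 4.44, 2.74 and 3.15 CPM, with PF-06821497 8.46, 8.29 and 6.32 CPM, with CPI-1205 1.86, 2.31 and 2.64 CPM, and in vehicle 1.09, 1.93 and 2.00 CPM. Only CPI-1205 libraries overlapped the vehicle libraries. The log2 fold change against vehicle was 4.40 ± 0.33 with CPI-0209 (21.1-fold, edgeR adjusted p 4.58e-09), 3.82 ± 0.33 with Valemetostat (adjusted p 5.23e-08), 2.86 ± 0.33 with MAK683 (adjusted p 3.10e-06) and 2.19 ± 0.33 with PF-06821497 (adjusted p 0.000188). Without Valemetostat library 3 the Valemetostat value was 3.27. Tazemetostat gave 1.04 ± 0.34 (interval 0.34 to 1.74, adjusted p 1, unadjusted p 0.00566 by edgeR), with an adjusted p of 0.00594 when low counts were not filtered. CPI-1205 gave 0.44 ± 0.35, with an interval of -0.29 to 1.17 (adjusted p 0.610).

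CXCL9 had the fewest counts of the 3 genes in every group and was not detected in vehicle. It had 50, 58 and 21 counts with CPI-0209 (2.79, 3.33 and 2.01 CPM), 38, 25 and 83 counts with Valemetostat (1.77, 1.23 and 4.58 CPM) and 10, 10 and 6 counts with MAK683 (0.618, 0.489 and 0.333 CPM). PF-06821497 libraries had 13, 3 and 6 counts (0.675, 0.129 and 0.263 CPM). Tazemetostat libraries had 0, 0 and 1 counts, CPI-1205 libraries had 1, 0 and 1, and all vehicle libraries had 0, which allows up to 0.0445 CPM over the vehicle group. Against that floor CXCL9 was at least 63.3-fold higher with CPI-0209 (edgeR adjusted p 1.17e-06), at least 54.8-fold higher with Valemetostat (2.96e-06), at least 10.7-fold higher with MAK683 (0.00216) and at least 7.57-fold higher with PF-06821497 (0.00994). CXCL9 passed the filter on low counts through the groups where it was high. Fits of MAK683 or PF-06821497 with vehicle alone left it untested. Without CPI-0209 library 3 the adjusted p was 2.68e-06 and the bound 68.6-fold. The bound for Valemetostat was 34.0-fold without its library 3 (adjusted p 7.52e-06). Without PF-06821497 library 1 the bound for PF-06821497 was 4.39-fold (adjusted p 0.0403). A floor over 2 vehicle libraries is higher, and without vehicle library 2 the bounds were 40.9-fold with CPI-0209, 35.4-fold with Valemetostat, 6.91-fold with MAK683 and 4.89-fold with PF-06821497. With tazemetostat and CPI-1205 both it and vehicle were at or under the floor, so no fold is given, and the edgeR adjusted p was 1 and 0.583.

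Each of the 3 genes was therefore called higher with 4 of the 6 compounds. These calls stand beside wide responses, and the share of the 21958 tested genes called higher was 22.3% with CPI-0209, 15.0% with Valemetostat, 10.4% with MAK683 and 5.96% with PF-06821497. The share called lower was 18.8% with CPI-0209, 12.2% with Valemetostat, 5.17% with MAK683 and 3.59% with PF-06821497. With tazemetostat and with CPI-1205, 0% of genes were called higher and 0% lower by edgeR. At an unadjusted p under 0.05 edgeR had 647 genes with tazemetostat and 2713 with CPI-1205, DESeq2 called 6 with tazemetostat and 22 with CPI-1205, and limma-voom called 0 in both. The comparisons with vehicle share the same 3 vehicle libraries. In bulk RNA, fewer cells of a type and less RNA per cell cannot be told apart.

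**Figure D2:**
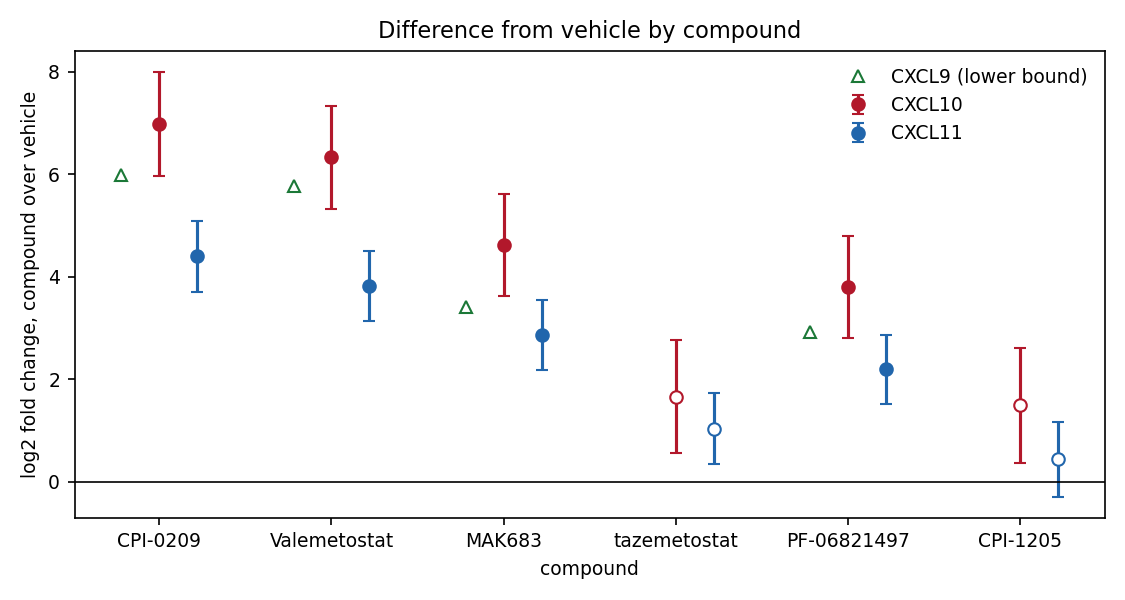
Log2 fold change over vehicle (vertical axis) for each compound; circles are edgeR values with 95% intervals, filled where the adjusted p is under 0.05, and open triangles are lower bounds for CXCL9, which has 0 counts in vehicle. The CXCL10 value is above that of CXCL11 with every compound, from 6.98 against 4.40 with CPI-0209 to 1.49 against 0.44 with CPI-1205.

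All compounds were given at the same dose and sampled at the same time, so they were compared with each other in 15 pairs, with p-values adjusted over all genes and pairs together. The 3 chemokines differed among the 6 compounds, with an overall edgeR adjusted p of 5.71e-07 for CXCL9, 1.01e-08 for CXCL10 and 1.09e-08 for CXCL11, where 32.3% of tested genes were called. For each gene 12 of the 15 pairs were called, and the 3 pairs that were not are the same for all 3 genes. Levels ran from CPI-0209 through Valemetostat, MAK683 and PF-06821497 to the pair of tazemetostat and CPI-1205, and the uncalled pairs were neighbours in that order.

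CPI-0209 and Valemetostat stood at the top. CPI-0209 exceeded Valemetostat by a log2 difference of 0.65 (95% interval -0.06 to 1.36) for CXCL10, 0.58 (0.01 to 1.14) for CXCL11 and 0.13 (-0.80 to 1.05) for CXCL9, with adjusted p of 0.256, 0.198 and 0.905 in edgeR. This pair rests on Valemetostat library 3: without it the difference was 1.40 for CXCL10 (adjusted p 0.00048) and 1.16 for CXCL11 (adjusted p 0.00112), and with no filter on low counts both were called as well (adjusted p 0.00128 and 0.0366). MAK683 exceeded PF-06821497 by 0.81 (0.06 to 1.56) for CXCL10 and 0.67 (0.08 to 1.26) for CXCL11, with adjusted p of 0.168 and 0.148. For CXCL9 that pair differed by 0.47 (-0.85 to 1.78). The MAK683 libraries were all above the PF-06821497 libraries for CXCL10 and CXCL11, and with no filter both differences were called (adjusted p 4.33e-05 and 0.0110). Tazemetostat and CPI-1205 differed by 0.17 (-0.77 to 1.11) for CXCL10 and 0.60 (-0.08 to 1.27) for CXCL11. Over all genes, 3.48% were called between CPI-0209 and Valemetostat, 3.55% between MAK683 and PF-06821497 and 1.38% between tazemetostat and CPI-1205.

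The other pairs were called for all 3 genes. CXCL10 was higher with CPI-0209 than with MAK683 by 2.36 (95% interval 1.61 to 3.11, adjusted p 0.000181), and higher with Valemetostat than with MAK683 by 1.71 (0.98 to 2.45, adjusted p 0.00281). That difference was 0.98 without Valemetostat library 3, still called. CXCL11 followed with 1.54 for CPI-0209 over MAK683 and 0.96 for Valemetostat over MAK683 (adjusted p 0.0271). That last difference was not called without Valemetostat library 3 (0.40, adjusted p 0.286), without MAK683 library 2 (0.92, adjusted p 0.0771), without MAK683 library 3 (0.96, adjusted p 0.0697) or by limma-voom (0.79, adjusted p 0.0606). MAK683, the EED binder, was above tazemetostat by 2.96 for CXCL10 and 1.83 for CXCL11 and above CPI-1205 by 3.12 and 2.43. Tazemetostat was lower than PF-06821497 by a CXCL10 log2 value of -2.14 ± 0.40 (adjusted p 0.00136) and a CXCL11 value of -1.16 (-1.78 to -0.53, adjusted p 0.0135). The CXCL11 difference between tazemetostat and PF-06821497 was not called without tazemetostat library 2 (-1.01, adjusted p 0.0672), without tazemetostat library 3 (-1.10, adjusted p 0.0516), or without the libraries marked as resubmitted in their titles (-1.10, adjusted p 0.0616). PF-06821497 was above CPI-1205 by 2.31 for CXCL10 and by 1.76 for CXCL11. Without the libraries whose count columns are marked as resubmitted the CXCL10 value was 2.98. That omission takes out CPI-1205 libraries 2 and 3 and leaves library 1 alone. The widest gaps, CPI-0209 over CPI-1205 and CPI-0209 over tazemetostat, were 5.49 and 5.32 for CXCL10 and 3.96 and 3.36 for CXCL11.

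**Figure D3:**
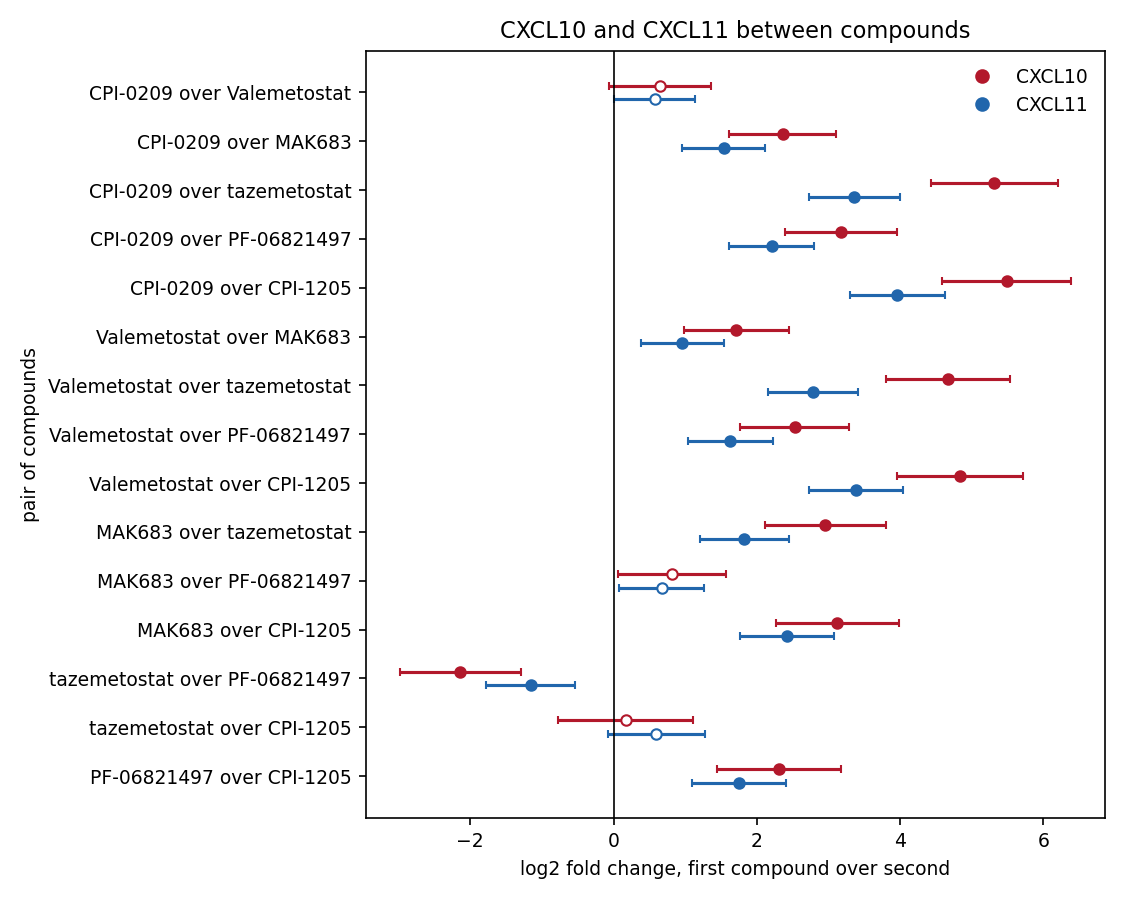
Log2 difference between compounds (horizontal axis, first compound over second) for the 15 pairs, with 95% intervals from edgeR, filled where the p adjusted over all genes and pairs is under 0.05. The open pairs are CPI-0209 over Valemetostat, MAK683 over PF-06821497 and tazemetostat over CPI-1205, with CXCL10 values of 0.65, 0.81 and 0.17.

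CXCL9 counts behind the pairs were small where tazemetostat or CPI-1205 was involved. CPI-0209 had 129 counts in all against 1 with tazemetostat, a ratio of 205.7 with an exact 95% counting interval of 36.3 to 8187, and 2 with CPI-1205, a ratio of 96.6 (26.2 to 806.2). MAK683 had 26 counts, a ratio over tazemetostat of 34.8 (5.71 to 1425) and over CPI-1205 of 16.3 (4.09 to 141.9). PF-06821497 had 22 counts, a ratio over CPI-1205 of 11.6 (2.84 to 101.4, edgeR adjusted p 0.0326), and that call was lost without PF-06821497 library 1 (adjusted p 0.152), which held 13 of the counts. It was also lost without any 1 of the CPI-1205 libraries (adjusted p 0.0569, 0.106 and 0.0645 without library 1, 2 and 3), by limma-voom (0.0833) and with the skeletal muscle covariate (0.0598). The call was lost as well without the libraries marked as resubmitted in their titles, which leaves CPI-1205 library 1 alone. The tazemetostat and PF-06821497 pair (adjusted p 0.0152) had an adjusted p of 0.0756 without PF-06821497 library 1, 0.0575 without tazemetostat library 1, 0.0573 without tazemetostat library 2 and 0.0836 without the title-marked libraries. The MAK683 and CPI-1205 pair (0.0116) was not called without the title-marked libraries, which leaves CPI-1205 library 1 alone. CPI-0209 exceeded MAK683 by a log2 value of 2.51 (adjusted p 0.00304) and PF-06821497 by 2.97 (adjusted p 0.000828).

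The share of all tested genes called in the other pairs, as background, was 10.0% for CPI-0209 and MAK683, 29.3% for CPI-0209 and tazemetostat, 18.8% for CPI-0209 and PF-06821497 and 28.4% for CPI-0209 and CPI-1205. It was 1.48% for Valemetostat and MAK683, 17.3% for Valemetostat and tazemetostat, 6.67% for Valemetostat and PF-06821497 and 18.5% for Valemetostat and CPI-1205. It was 9.89% for MAK683 and tazemetostat, 14.0% for MAK683 and CPI-1205, 4.83% for tazemetostat and PF-06821497 and 6.84% for PF-06821497 and CPI-1205. Valemetostat and MAK683 differed in the fewest genes among these pairs, and all 3 chemokines were among them.

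Per exon length (RPKM, the CPM over the exon length in kb, here 2740, 1176 and 1908 bases for CXCL9, CXCL10 and CXCL11), CXCL10 was the most abundant with every compound. The CXCL10 level averaged 88.2 ± 10.6 RPKM with CPI-0209, against 18.6 ± 1.77 RPKM for CXCL11 and 0.989 ± 0.243 RPKM for CXCL9 in the same libraries. In vehicle CXCL10 stood at 0.691 ± 0.0820 RPKM and CXCL11 at 0.877 ± 0.267 RPKM. The ratio of CXCL10 to CXCL11 in RPKM was 4.74 ± 0.190 with CPI-0209, 4.35 ± 0.569 with Valemetostat, 2.66 ± 0.640 with MAK683 and 2.43 ± 0.662 with PF-06821497. It was 1.24 ± 0.0888 with tazemetostat, 1.63 ± 0.324 with CPI-1205 and 0.843 ± 0.279 in vehicle (SD, n = 3 each). The lowest library ratio with CPI-0209 (4.52) was above the highest in vehicle (1.15). The balance moved towards CXCL10 where both genes were high, which is a description without a test.

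The genes that induce the 3 chemokines were read from lists chosen with earlier results of these data known. Of 15 interferon and interferon receptor genes, 11 could be tested, and 5 were higher and 1 lower with CPI-0209, 3 and 1 with Valemetostat, 1 and 0 with MAK683 and 2 and 0 with PF-06821497. The share of all tested genes called higher and lower was 22.3% and 18.8% with CPI-0209 and 15.0% and 12.2% with Valemetostat. It was 10.4% and 5.17% with MAK683 and 5.96% and 3.59% with PF-06821497. The interferon gene counts are small and changed with the setting. Without CPI-0209 library 3, 0 were higher with PF-06821497, as by limma-voom, and without Valemetostat library 3 it was 1. Without Valemetostat library 3, 2 were higher and 0 lower with Valemetostat and 3 were higher with MAK683, as by DESeq2. IFNG, the gene of interferon-gamma, had 36 counts with CPI-0209 (0.758 ± 0.174 CPM) and 32 with Valemetostat (0.555 ± 0.379 CPM) against 0 in vehicle, at least 17.7-fold higher with CPI-0209 (edgeR adjusted p 8.57e-05) and at least 12.0-fold higher with Valemetostat (0.00046). The Valemetostat bound was 7.55-fold without Valemetostat library 3, and without vehicle library 2 the bounds were 11.4-fold with CPI-0209 and 7.77-fold with Valemetostat. IFNL1, a type III interferon, averaged 2.45 ± 0.688 CPM with CPI-0209 and 0.0899 ± 0.0790 CPM in vehicle (log2 4.68 ± 0.55, adjusted p 8.47e-07) and was also called with Valemetostat (4.20), MAK683 (3.08) and PF-06821497 (2.11). IFNL2 and IFNL3 rose with CPI-0209 as well (2.76 and 3.02). IFNG, IFNL1, IFNL2 and IFNL3 had 0, 6, 8 and 7 counts in vehicle and could be tested through the groups where they were high. The receptor gene IFNAR1 fell by 0.48 on the log2 scale with CPI-0209, and IFNGR1, a receptor gene of interferon-gamma, had 0.21 (adjusted p 0.130). IFNE, a type I interferon gene named to complete these counts after its values were seen, averaged 1.24 ± 0.276 CPM with CPI-0209, 1.38 ± 0.712 CPM with PF-06821497 and 0.617 ± 0.168 CPM in vehicle (log2 0.97, adjusted p 0.0465, with CPI-0209 and 1.15, adjusted p 0.0478, with PF-06821497). IFNB1, IFNA1, IFNA2 and IFNK, also type I interferon genes, had too few reads to test, with 11 counts with CPI-0209 and 3 in vehicle for IFNB1.

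With CPI-0209, 6 of 17 JAK, STAT and IRF signalling genes were higher and 1 was lower (median log2 fold change 0.14, against -0.02 over all genes tested), where 22.3% of all tested genes were higher and 18.8% lower. With the skeletal muscle covariate 3 of the 17 were lower. IRF1, an activator of these chemokine genes, averaged 132.7 ± 13.7 CPM with CPI-0209 and 51.1 ± 5.56 CPM in vehicle (1.38 ± 0.13), and rose with Valemetostat (1.12) and MAK683 (0.46, adjusted p 0.0159) but had 0.24 with PF-06821497 (adjusted p 0.262). SOCS1 and SOCS3, feedback inhibitors of JAK signalling, rose with CPI-0209 by 1.54 ± 0.18 and 2.06 ± 0.25. JAK1, a kinase of the interferon receptors, was lower at 127.8 ± 9.37 CPM with CPI-0209 than in vehicle at 238.7 ± 23.7 CPM (-0.90 ± 0.12, adjusted p 4.64e-06), and was also lower with Valemetostat, MAK683 and PF-06821497 (-0.75, -0.49 and -0.42).

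Of 30 interferon-gamma response genes, all tested, 22 were higher and 1 lower with CPI-0209 (median 1.11), and 22 and 0 with Valemetostat (0.84). With MAK683 13 were higher and 1 lower (0.37), and with PF-06821497 9 and 0 (0.22). Over all tested genes, 22.3%, 15.0%, 10.4% and 5.96% were higher with these compounds in that order. UBD, a ubiquitin-like protein gene, averaged 24.4 ± 6.45 CPM with CPI-0209 and 0.118 ± 0.0642 CPM in vehicle (7.61 ± 0.52, adjusted p 1.37e-09), and IDO1, which breaks down tryptophan, averaged 44.2 ± 9.37 CPM with CPI-0209 and 0.562 ± 0.0868 CPM in vehicle (6.28, adjusted p 1.14e-08). CIITA, the activator of MHC class II genes, rose by 3.37 ± 0.30 and PSMB9, an immunoproteasome subunit, by 1.77. Of 34 type I interferon response genes, 20 were higher with CPI-0209 (median 0.65), 19 with Valemetostat (0.62) and 8 with MAK683 (0.45), and 0 were lower in each. IFIT3, an antiviral protein gene, rose with CPI-0209 by 1.23 ± 0.20, IFI35 by 1.36 ± 0.16 and USP18, a brake on interferon signalling, by 1.12 ± 0.19. RTP4 was also higher (adjusted p 1.14e-05). With PF-06821497, 0 of these 34 genes were called by edgeR, DESeq2 or limma-voom (2 higher and 1 lower at an unadjusted edgeR p under 0.05). With the skeletal muscle covariate 1 was called higher. Only 5.96% of all tested genes were higher with PF-06821497, so 0 of 34 does not stand far from that background. IFIT3 stood there at 50.9 ± 11.8 CPM with PF-06821497 and 50.5 ± 5.81 CPM in vehicle. Without Valemetostat library 3, 12 type I response genes were higher with Valemetostat in place of 19. No gene of any list was called with tazemetostat or CPI-1205 by edgeR, as for all genes tested.

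**Figure D4:**
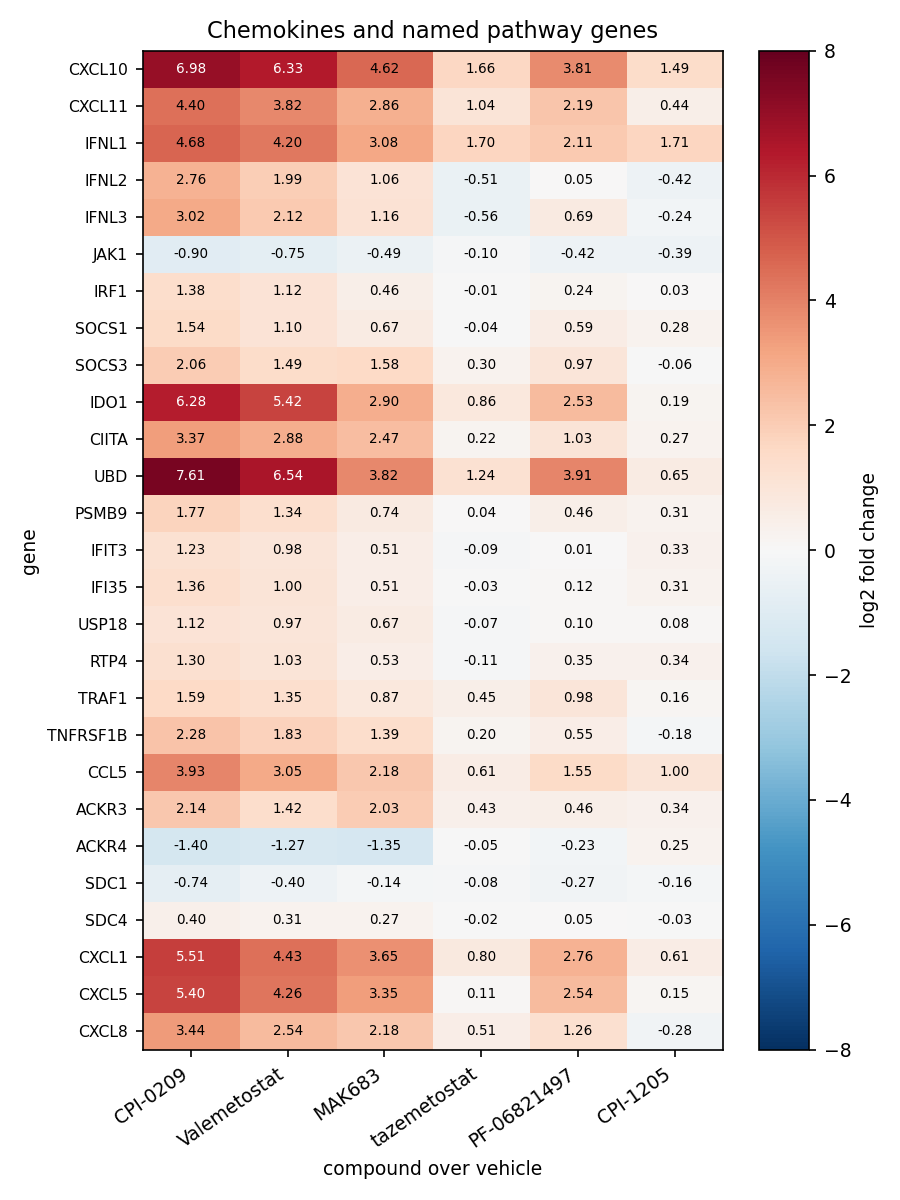
Log2 fold change over vehicle for CXCL10, CXCL11 and the named genes of the lists, by compound; the colour and the printed value are the edgeR estimate, and genes with 3 or fewer vehicle counts are left out. UBD (7.61), CXCL10 (6.98) and IDO1 (6.28) have the largest values with CPI-0209 among the genes drawn, and JAK1 and ACKR4 are below 0 with CPI-0209, Valemetostat and MAK683.

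NF-kB subunits and targets had 16 of 29 genes higher and 4 lower with CPI-0209 (median 0.55), 14 and 4 with Valemetostat (0.45), 9 and 1 with MAK683 (0.30) and 5 and 1 with PF-06821497 (0.13). Among all tested genes, 22.3%, 15.0%, 10.4% and 5.96% were higher with these compounds in that order. The shares lower were 18.8%, 12.2%, 5.17% and 3.59%. CCL5, another T-cell chemokine, averaged 258.5 ± 74.6 CPM with CPI-0209 and 17.0 ± 2.42 CPM in vehicle (3.93 ± 0.30, adjusted p 1.09e-08). It rose by 3.05 with Valemetostat, 2.18 with MAK683 and 1.55 with PF-06821497. TNFRSF1B, a TNF receptor, and TRAF1, an adaptor of that receptor family, rose with CPI-0209 by 2.28 and 1.59. LTB, the gene of lymphotoxin beta, had 61 counts with CPI-0209 and 3 in vehicle, a ratio of 29.9 (exact counting interval 9.76 to 149.1).

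The other CXC chemokines, several of which attract neutrophils, rose alongside. Of 14 genes 11 could be tested, and 11 were higher with CPI-0209, 10 with Valemetostat, 7 with MAK683 and 6 with PF-06821497, with 0 lower in each. Over all tested genes, 22.3%, 15.0%, 10.4% and 5.96% were higher with these compounds in that order. PPBP and CXCL6, with 0 and 2 counts in vehicle, passed the filter on low counts through groups where they were high. PF4, PF4V1 and CXCL13 had too few reads to test. The number called higher was thus partly fixed beforehand. The median log2 fold change with CPI-0209 was 3.44, unchanged with PPBP, which had 0 counts in vehicle, set at its lower bound. CXCL5 averaged 59.6 ± 15.3 CPM with CPI-0209 and 1.41 ± 0.439 CPM in vehicle (5.40 ± 0.48), and CXCL8 averaged 78.4 ± 1.19 CPM with CPI-0209 and 7.24 ± 0.398 CPM in vehicle (3.44 ± 0.31). CXCL1 rose by 5.51, 4.43, 3.65 and 2.76 with CPI-0209, Valemetostat, MAK683 and PF-06821497. CXCL6 had 75 counts with CPI-0209 and 2 in vehicle, a ratio of 55.2 (14.8 to 463.9). CXCR3, the receptor of the 3 chemokines, had too few reads to test, with 2 counts under CPI-0209, 5 under Valemetostat, 1 under MAK683, 0 under tazemetostat, 2 under PF-06821497, 1 under CPI-1205 and 1 in vehicle. Of the 6 tested receptors and regulators, 3 were higher and 3 lower with CPI-0209, where 22.3% and 18.8% of all tested genes were. ACKR3, a scavenger receptor of CXCL11, averaged 3.00 ± 0.796 CPM with CPI-0209 and 0.664 ± 0.132 CPM in vehicle (2.14 ± 0.47), and DPP4, a protease that clips these chemokines, rose by 1.02. The atypical chemokine receptor gene ACKR4 was lower by a log2 value of -1.40 ± 0.45. SDC1, a heparan sulfate proteoglycan, had a log2 value of -0.74 ± 0.13 and SDC4, another one, of 0.40 ± 0.09, both called.

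On the chromosome, ART3 and AC112719.1, which overlap the chemokine genes, were higher with CPI-0209 as well, while SDAD1 and NUP54, the nearest tested genes on either side, were not called. ART3, which encodes an ADP-ribosyltransferase-like protein, runs on the plus strand at chr4:76011184-76112802 across CXCL10 and CXCL11. It averaged 3.42 ± 0.803 CPM with CPI-0209, 2.16 ± 1.18 CPM with Valemetostat, 1.73 ± 0.367 CPM with MAK683 and 1.27 ± 0.317 CPM with PF-06821497, against 0.459 ± 0.131 CPM in vehicle. All 4 were called (log2 2.87, 2.21, 1.91 and 1.45). Annotated exons of ART3 share 0 bases with those of CXCL10 or CXCL11. The strand setting of the counting is not given in the sources used here, so reads of the 2 strands cannot be told apart where features overlap. AC112719.1, a processed pseudogene inside CXCL11 on the same strand, had 21 counts with CPI-0209 and 1 in vehicle. It shares 0 exon bases with CXCL11, but its reads cannot be told apart from those of unspliced CXCL11 RNA. It is still counted among the tested neighbours below, although it may not be a signal of its own. AC112719.2, antisense to CXCL9, had 8 counts with CPI-0209 and 1 in vehicle, too few to test.

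Outside the overlap, SDAD1, the nearest tested gene on the side of CXCL9, 10.3 kb away, averaged 31.0 ± 3.00 CPM with CPI-0209 and 34.0 ± 2.95 CPM in vehicle (log2 -0.13 ± 0.12, adjusted p 0.415). NUP54, a nuclear pore gene 73.2 kb beyond CXCL11, averaged 43.8 ± 4.35 CPM with CPI-0209 and 45.8 ± 2.38 CPM in vehicle (-0.07 ± 0.10, adjusted p 0.641). Of 15 tested neighbours within 500 kb of the 3 genes, 5 were higher under CPI-0209 and 3 were lower, with 2 and 1 for Valemetostat, 1 and 0 for MAK683 and 1 and 0 for PF-06821497. Over all tested genes 22.3% were higher and 18.8% lower under CPI-0209, and these neighbours' counts do not stand far from that background. Higher with CPI-0209 were ART3, AC112719.1, ODAPH (1.25), CDKL2 (1.56) and SHROOM3 (0.47), and FAM47E (-0.96), THAP6 (-0.42) and SCARB2 (-0.35) were lower. ODAPH, CDKL2, THAP6 and SCARB2 were picked after their values were seen, to complete these counts. Without CPI-0209 library 3 the counts with CPI-0209 were 4 higher and 1 lower, and with the skeletal muscle covariate 3 were higher. Lower with Valemetostat were 2 without Valemetostat library 3.

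**Figure D5:**
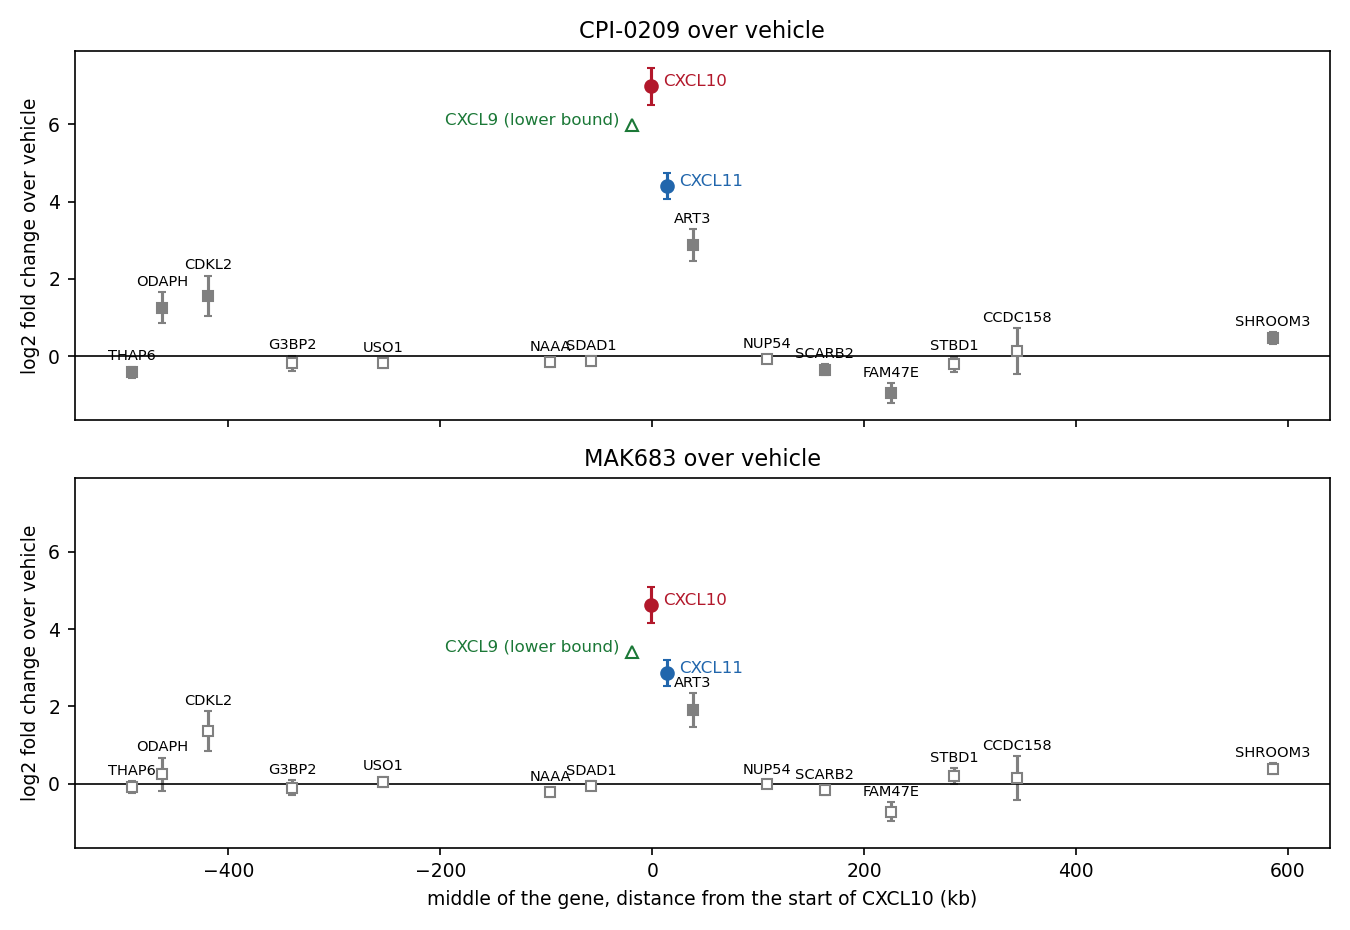
Log2 fold change over vehicle ± SE (vertical axis) against the distance of each gene's middle from the start of CXCL10 in kb, for CPI-0209 above and MAK683 below; filled symbols have adjusted p under 0.05, and the open triangle is the lower bound for CXCL9. CXCL10 (6.98 and 4.62), CXCL11 (4.40 and 2.86) and ART3 (2.87 and 1.91) stand above their flanking genes SDAD1 (-0.13 and -0.05) and NUP54 (-0.07 and -0.02) in both panels.

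With CPI-0209, many but not all markers of other cells were higher along with the chemokines, where 22.3% of all tested genes were higher and 18.8% lower. The sum of 8 natural killer cell markers was 3.40 to 4.68 CPM with CPI-0209, 1.48 to 2.81 CPM with Valemetostat and 0.888 to 1.98 CPM with MAK683. It was 0.831 to 1.32 CPM with PF-06821497 and 0.419 to 0.965 CPM in vehicle. Only 3 of the 8 had enough reads to test, and 3 of these 3 were higher with CPI-0209. Markers this low in vehicle pass the filter on low counts through groups where they are high. That count was thus largely fixed beforehand, and the same limit holds for other markers low in vehicle in the lists below. The cytotoxic granule genes GZMA and GZMB were near 0, at 0.0319 and 0.0743 CPM with CPI-0209 and at 0.0140 and 0.0155 CPM in vehicle. The 13 T and B lymphocyte markers summed to 65.8 to 84.7 CPM with CPI-0209 and 37.8 to 68.4 CPM in vehicle, with 4 of 5 tested higher. Most of that sum was TRBC2, a T-cell receptor constant gene, at 64.0 CPM with CPI-0209 and 47.5 CPM in vehicle. CD3E, a T-cell receptor subunit, averaged 2.53 CPM with CPI-0209 and 0.534 CPM in vehicle. CD2 and MS4A1, defining genes of T cells and B cells, were near 0, at 0.0192 and 0.0887 CPM with CPI-0209 and at 0.0151 and 0 CPM in vehicle. Of 17 tested macrophage and granulocyte markers 11 were higher and 1 lower with CPI-0209, and the list summed to 3973 to 4390 CPM with CPI-0209 and 2711 to 3939 CPM in vehicle. Most of that sum was S100A8 (1537 CPM with CPI-0209 and 1306 CPM in vehicle) and S100A9 (2399 CPM with CPI-0209 and 1918 CPM in vehicle), which squamous and carcinoma epithelium also makes. PTPRC, the common leukocyte antigen, averaged 1.47 CPM with CPI-0209 and 0.180 CPM in vehicle, and the myeloid adaptor TYROBP averaged 0.170 CPM with CPI-0209 and 0 CPM in vehicle. ITGAM, of the same list, went the other way, at 73.5 CPM with CPI-0209 and 124.2 CPM in vehicle. Dendritic cell markers had 2 of 4 higher and 1 lower with CPI-0209, with sums of 79.3 to 102.9 CPM with CPI-0209 and 20.1 to 24.1 CPM in vehicle. Most of that sum was LAMP3, at 80.0 CPM with CPI-0209 and 15.2 CPM in vehicle. XCR1, of the same list, was at 0.437 CPM with CPI-0209 and 2.75 CPM in vehicle. Endothelial markers had 6 of 10 higher and 2 lower, with sums of 62.3 to 84.7 CPM with CPI-0209 and 25.6 to 27.1 CPM in vehicle. PECAM1 stood at 27.4 CPM with CPI-0209 and 1.99 CPM in vehicle, while CDH5, the endothelial cadherin, stood at 0.804 CPM with CPI-0209 and 1.88 CPM in vehicle. With the other compounds under which the chemokines rose, fewer of these markers were called in most lists. Over all tested genes, 15.0% were higher with Valemetostat, 10.4% with MAK683 and 5.96% with PF-06821497, also fewer than with CPI-0209. Natural killer markers had 2 of 3 higher with Valemetostat, 1 with MAK683 and 0 with PF-06821497, and lymphocyte markers 4, 2 and 1 of 5 in that order of compounds. Macrophage and granulocyte markers had 6, 4 and 4 of 17 higher, dendritic cell markers 2, 2 and 1 of 4 and endothelial markers 5, 3 and 1 of 10. The part of these cells in the chemokine levels was not tested, nor was the species of the reads.

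Fibroblast and matrix markers had 9 of 14 higher and 2 lower with CPI-0209 (sums of 1754 to 4457 CPM with CPI-0209 and 1280 to 2054 CPM in vehicle), and skeletal muscle markers 6 of 14 higher and 1 lower (sums of 444.4 to 2134 CPM with CPI-0209 and 614.0 to 677.1 CPM in vehicle). With Valemetostat, MAK683 and PF-06821497, 6, 5 and 2 of the 14 fibroblast and matrix markers were higher, and 0 of the 14 skeletal muscle markers with any of them. Over all tested genes, 15.0%, 10.4% and 5.96% were higher with these compounds, and 22.3% were higher and 18.8% lower with CPI-0209. The muscle signal was highest in CPI-0209 library 3. CXCL10 was 95.9 CPM there, against 97.2 and 118.2 CPM in CPI-0209 libraries 1 and 2. CXCL11 was 34.4 CPM there, against 32.8 and 39.3 CPM in libraries 1 and 2. The part of muscle tissue in the chemokine levels was not tested. With the median of the muscle markers as a covariate, the CXCL10 log2 fold change of CPI-0209 over vehicle was 6.71 in place of 6.98, and without CPI-0209 library 3 it was 7.03. The labelled carcinoma was present in every library, with a sum of 11 carcinoma and urothelium markers of 11399 to 13592 CPM with CPI-0209 and 17739 to 18824 CPM in vehicle, 1 of 11 higher and 5 lower.

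Across the 21 libraries the 3 chemokines followed each other closely, with Pearson r of 0.987 between CXCL10 and CXCL11, 0.968 between CXCL9 and CXCL10 and 0.953 between CXCL9 and CXCL11 in log2 CPM. The libraries form 7 treatment groups and share these differences, so the r values describe the treatments and carry no p. Among 16339 genes with a mean of at least 1 CPM, CXCL10 was the gene most like CXCL11, and CXCL11 ranked 4 for CXCL10. CXCL9 ranked 62 for CXCL10 and 155 for CXCL11. For CXCL9, CXCL10 ranked 9 and CXCL11 ranked 49, so other genes followed CXCL9 more closely. The genes most like CXCL9 were UBD (0.980), IDO1 (0.979), MRGPRX3, a receptor gene (0.973), C1S, a complement protease (0.972), and ICAM1, a leukocyte adhesion molecule (0.971). CXCL10 was most like the noncoding RNA LINC00869 (0.991), the cancer-testis gene MAGEA10 (0.990), HAPLN3, a matrix link protein (0.988), MMP13, a collagenase (0.984), and SLC43A3, a membrane transporter (0.984). CXCL11 was most like LINC00869 (0.986), the cytokine LIF (0.984), the protease inhibitor EPPIN (0.982), the receptor kinase MUSK (0.981) and UCHL1, a deubiquitinating enzyme (0.980). UBD, IDO1 and ICAM1 were also in the interferon-gamma response list.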

How the data were processed

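RNA-seq of 21 libraries from HT1376 xenograft tumours was analysed from whole-number counts per Ensembl gene, deposited by the authors, 1 table per library and not normalized. Per the submitters' processing notes the tools include STAR 2.7.3a and RSEM 1.3.1 with hg38; the counting program and its strand setting, and whether mouse reads were removed, are steps not given in the sources used here. Per the labels' protocols, libraries were made with a TruSeq RNA v2 kit, called strand specific elsewhere in the same text, and sequenced as paired reads of 150 bases. Symbols came from GENCODE 29 by identifier (56898 of 57500 matched, 54784 with the same start and end).

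Genes were filtered with filterByExpr by group (21958 kept, 99.6% to 99.9% of counts), scaled by TMM (factors 0.946 to 1.08) and tested with edgeR 4.0.16 (R 4.3.3) in 1 robust quasi-likelihood fit with a term per group, with two-sided p adjusted by Benjamini-Hochberg and called under 0.05. A log2 fold change is compound minus vehicle, or first minus second compound, and its SE is its size over the square root of F. The 15 pairs of compounds were adjusted over all genes and pairs. A fold against 0 counts was taken against 3 counts in the whole group, and ratios with 1 to 3 counts have exact 95% binomial intervals, for counting error only. Correlations used log2 CPM with a prior count of 2. Promoters were searched in the RefSeq table.

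Groups follow the treatment label. Titles and count column names give the PF-06821497 libraries different numbers, and title numbers are used. Library numbers did not pair the samples. Alternatives were no filter, a filter of 1 CPM in at least 3 libraries, upper-quartile or RLE scaling, DESeq2 1.42.0, limma-voom (limma 3.58.1), only the groups compared, a replicate block, omission of resubmission-marked libraries, a skeletal muscle covariate and each library left out. Column-name versions of the block and of the omission, and all alternatives for gene lists, were added after seeing the data. The fit was tested on simulated data. The members and lists were chosen with earlier results of these data known. Named genes were the 3 chemokines, EZH2, EZH1, EED, up to 4 genes per list with the smallest joint p against vehicle, the nearest tested neighbours with ART3, and the 5 genes most correlated with each chemokine; others named were picked after their values were seen.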

Additional observations from a re-analysis of the deposited data

How the results depend on the processing

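The calls of CXCL9, CXCL10 and CXCL11 against vehicle with CPI-0209, Valemetostat, MAK683 and PF-06821497 were kept under every alternative that tested them (the fit of only the groups compared left CXCL9 untested for MAK683 and PF-06821497), with CXCL10 log2 values of 6.71 to 7.12, 6.09 to 6.43, 4.55 to 4.66 and 3.53 to 3.98. Upper-quartile scaling moved the median of all genes with CPI-0209 from -0.02 to 0.12. Tazemetostat and CPI-1205 depended on the setting, and the cause was not tested. With no filter CXCL10 was called with tazemetostat (1.66, adjusted p 1.03e-08) and CPI-1205 (1.48, 7.62e-07) and CXCL11 with tazemetostat (1.04, 0.00594), and 46 and 358 genes were called in place of 0. In a fit of tazemetostat and vehicle alone CXCL10 was called (1.67, 0.0234) with 12 genes. Genes called with tazemetostat and CPI-1205 were 6 and 22 by DESeq2, 3 and 226 without the title-marked libraries and 3 and 259 without the column-marked ones, and 1 with tazemetostat under upper-quartile scaling. Leaving out 1 library gave 0 to 1 and 0 to 4, and PF-06821497 had 1041 to 1995 genes in place of 2098. The CXCL9 difference between CPI-0209 and Valemetostat turned its sign with the muscle covariate (edgeR adjusted p 0.978). It also turned without CPI-0209 library 2 (0.969), Valemetostat library 1 (0.9485) or Valemetostat library 2 (0.841). The adjusted p of this difference over all left-out libraries was 0.261 to 0.969. CXCL9 with tazemetostat had an adjusted p of 1 to 1 over left-out libraries. The CXCL10 difference between tazemetostat and CPI-1205 ran from -0.031 without CPI-1205 library 1 to 0.35. Without the column-marked libraries CXCL10 with CPI-1205 was 1.00, from CPI-1205 library 1 alone. Same-numbered libraries did not deviate together (r -0.313 to 0.326), and with a replicate block by title number 8609, 5634, 3141 and 1795 genes were called with CPI-0209, Valemetostat, MAK683 and PF-06821497 (9017, 5987, 3415 and 2098 without it); the block changed no chemokine call. Depth limits CXCL9, at 0 to 2 counts per group in vehicle, tazemetostat and CPI-1205.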
